A study of Homo sapiens with 4 samples.

Results

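The MX, tetherin and IFITM genes code for proteins that restrict viruses inside or at the surface of the infected cell. They comprise *MX1*, *MX2*, *BST2* (the gene of tetherin), *IFITM1*, *IFITM2* and *IFITM3*. Their members were found by gene symbol among the rows of a transcript count table, and the counts of their transcripts were added up gene by gene. They make up 6 of the 57820 genes in the table, and all 6 had counts in every library. RNA-seq had been performed on SK-N-SH cells, an established human neuroblastoma line, in 4 libraries of total RNA. In the OE group (2 libraries), the cells had received a recombinant lentivirus that carries the long noncoding RNA *RP5-998N21.4* under the EF1a promoter. In the vector control group (2 libraries), they had received the same kind of lentivirus without an insert. Both groups were thus transduced, and untransduced cells were not analysed here. Sample titles of the controls read WT, but the treatment given for them is the empty vector, which was followed. The labels do not say whether the libraries of a group came from separate cultures, so that p-values below measure the spread between these libraries, which may be technical. The comparison asks which genes differ in expression between cells with and without the overexpressed RNA.

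As background, the promoters of these genes respond to interferons. Interferon receptors activate JAK kinases, which phosphorylate STAT proteins. With IRF9 these form the ISGF3 complex, which binds interferon-stimulated response elements in target promoters. MX1 and MX2 are large GTPases related to dynamin. MX1 blocks influenza viruses and other RNA viruses, and MX2 blocks the nuclear entry of HIV-1. Tetherin, a protein with a transmembrane anchor at one end and a lipid anchor at the other, holds budding enveloped virions on the cell surface. IFITM proteins are small membrane proteins of the CD225 family that hinder the fusion of viral envelopes with cell membranes, IFITM1 mostly at the plasma membrane and IFITM2 and IFITM3 mostly in endosomes.

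The genes lie at 3 loci (GRCh37, GENCODE lifted annotation). *MX2* (ENSG00000183486.8, chr21:42733926-42781320, plus strand) precedes *MX1* (ENSG00000157601.9, chr21:42791947-42841998, plus strand) on chromosome 21. *BST2* (ENSG00000130303.8, chr19:17513748-17516439, minus strand) lies on chromosome 19. On chromosome 11, *IFITM2* (ENSG00000185201.12, chr11:303655-309397, plus strand), *IFITM1* (ENSG00000185885.11, chr11:310041-315272, plus strand) and *IFITM3* (ENSG00000142089.11, chr11:319676-329475, minus strand) form a cluster.

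The promoter sequences of these genes are shown because an interferon-type element is a well-known feature of promoters of this kind. They were chosen for display after both OE libraries were seen to exceed both vector control libraries for all 6 genes, as they did for 27.8% of all tested genes. The part of such elements in these values was not tested. RefSeq promoter sequences (GRCh38.p14, 250 bases before to 50 after a transcription start) were found for 4 of the 6 genes, *MX1*, *BST2*, *IFITM1* and *IFITM3*. *MX2* and *IFITM2* had no entry. Both strands were searched for the core of an interferon-stimulated response element, GAAA followed by any 2 bases and by GAAA. The following windows of 30 bases hold a match in capitals, read 5′ to 3′ on the strand of the gene, with positions counted from the transcription start as base 1.

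*MX1*, chr21:41420559-41420588, plus strand, match at 12: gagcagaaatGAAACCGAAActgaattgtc
*BST2*, chr19:17405741-17405770, minus strand, match at -130: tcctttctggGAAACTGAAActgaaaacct
*IFITM1*, chr11:313990-314019, plus strand, match at -40: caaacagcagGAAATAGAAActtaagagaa
*IFITM1*, chr11:314024-314053, plus strand, match at -6: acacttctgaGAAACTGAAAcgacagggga
*IFITM3*, chr11:320893-320922, minus strand, match at -52: caaatgccagGAAAAGGAAActgttgagaa
*IFITM3*, chr11:320876-320905, minus strand, match at -35: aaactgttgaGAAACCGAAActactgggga

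The *BST2* promoter held another match at -124, which overlaps the one shown. *MX1* has 3 entries for 3 starts, of which the first is shown, the second held no match and the third held 1 on the opposite strand at -196. Of all 35116 promoters of the same length, 1255 (3.57%) held the motif on either strand. A match describes these letters only, and no binding was measured in these libraries.

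Total counts were between 23785164 and 28307591 per library, and 20528 genes passed the filter on low counts (edgeR's filterByExpr). The overexpressed gene *RP5-998N21.4* had 32 and 33 counts in the vector control against 2407 and 2808 in OE, a log2 fold change of 6.11 with standard error 0.108 (edgeR, adjusted p = 0.0109). The size of that difference is uncertain, because the listed transcript of *RP11-439A17.9* (0, 4, 4515 and 5365 counts) is 99.4% identical to it. The commonest count above 0 of a transcript was 4 in every library, so it is not known whether 1 count stands for 1 read. Markers of other cells were near 0: of 10 in the table, 5 (*LYZ*, *ALB*, *KRT5* and *CD3E* among them) were at 0 in all 4 libraries, and the most counted, *CD14*, had at most 34 counts. Their summed level was 2.49 and 3.11 CPM (on the TMM-normalized library size) in the vector control and 1.63 and 2.28 CPM in the OE libraries. Markers of the adrenergic neuroblastoma state differed between the groups, as given with the gene lists.

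Expression of the restriction genes was higher in the OE than in the vector control libraries. In CPM, which puts the counts of each library on its TMM-normalized size, each OE library exceeded each vector control library for 6 of the 6 genes, as they did for 27.8% of all tested genes. The OE mean was at least 2 times the vector control mean for 5 of the 6 genes, the exception being *IFITM2*, against 6.19% of all tested genes. The median log2 fold change was 1.31 over the 6 genes and 0.01 over all tested genes. *MX1* (6 counts in vector control replicate 2) and *BST2* (4 counts in vector control replicate 1) passed the filter on low counts only with an OE library. They thus enter these numbers and the calls below partly because they were high in OE, which limits the comparison with all tested genes. In edgeR's quasi-likelihood test, *MX2*, *BST2*, *IFITM2* and *IFITM3* were higher at an unadjusted p under 0.05, against 10.1% of all tested genes, and 0 of the 6 were lower, against 10.7%. At the study's thresholds (adjusted p under 0.01 and absolute log2 fold change above 0.5), edgeR called 0 of the 6 genes and 0 of all tested genes, of which 2069 were higher and 2200 lower at an unadjusted p under 0.05. At an adjusted p under 0.05 it called 0 of the 6, against 0.594% of all tested genes. DESeq2, the tool named in the study's methods, called *MX2*, *BST2* and *IFITM3* at the same thresholds, against 4.35% of all tested genes called in this direction, and 0 of the 6 in the other, against 4.42%. An exact permutation test of a single gene, 2 libraries against 2, cannot give a two-sided p below 0.333. In bulk RNA, more cells that express a gene and more RNA per cell cannot be told apart.

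**Figure D1:**
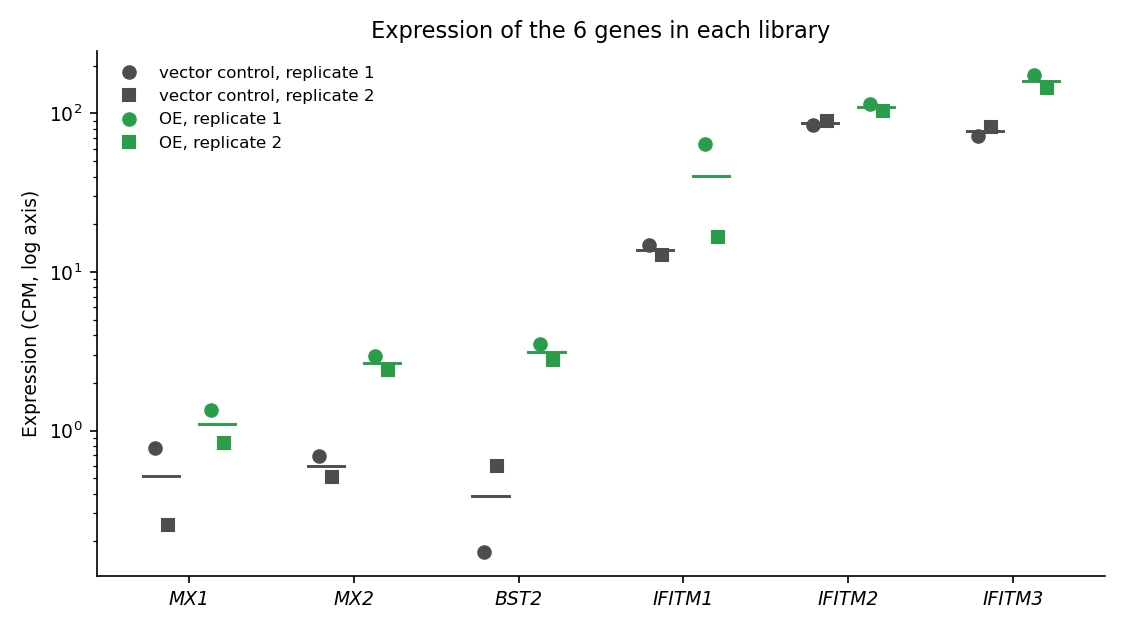
Expression of the 6 restriction genes in CPM on a log axis, with 1 point per library, vector control in grey and OE in green, replicate 1 as circles and replicate 2 as squares, and bars at the mean of 2 libraries. Both OE points lie above both vector control points for each gene; the gap between replicates is widest for *IFITM1* in OE and for *MX1* and *BST2* in the vector control, and heights of different genes are not comparable because CPM is not scaled by length.

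*MX2* had 16 and 12 counts in the vector control against 74 and 70 in OE. The groups were far apart and the replicates of each were close, with 0.599 ± 0.125 CPM (SD, n = 2) against 2.68 ± 0.374 CPM (SD, n = 2) in OE, a 4.48-fold ratio of the means. Its log2 fold change was 2.15 with a standard error of 0.298 (edgeR, unadjusted p = 0.00249, adjusted p = 0.0818), and DESeq2 gave an adjusted p of 7.05e-06. With each library left out in turn, the log2 fold change was from 1.95 to 2.38.

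*MX1*, the neighbour of *MX2* on the same strand, had 18 and 6 counts in the vector control against 34 and 24 in OE. The groups nearly met, with 0.83 CPM in the lower OE library and 0.773 CPM in the higher vector control library. The means were 0.514 ± 0.366 CPM (SD, n = 2) and 1.09 ± 0.371 CPM (SD, n = 2), and the log2 fold change of 1.08 with a standard error of 0.667 did not pass (edgeR, unadjusted p = 0.187, adjusted p = 0.439). The vector control replicates differed 3.03-fold, a gap that 12.6% of the 3707 tested genes of a like level (mean CPM within 2-fold) reached or exceeded. Without vector control replicate 1 the log2 fold change was 2.07, without vector control replicate 2 it was 0.49, and without OE replicate 1 it was 0.69. The share of *MX2* in the counts of both MX genes was 47.1% and 66.7% in the vector control and 68.5% and 74.5% in the OE libraries. The 95% Wilson intervals were wide in the vector control, 31.5% to 63.3% on 34 counts and 43.7% to 83.7% on 18 counts, against 59.3% to 76.5% and 64.8% to 82.2% in OE. Of the pairs between groups, vector control replicate 1 and OE replicate 2 alone had intervals apart, so that an unequal difference of the MX genes was not clear at this depth. Such intervals cover counting error only, not the spread between libraries, and take 1 count as 1 read, which is not known.

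*BST2* showed the highest ratio among the restriction genes, on few counts. Vector control libraries held 4 and 14 of its counts, against 88 and 80 in OE. Both OE libraries were well above both controls, with 0.384 ± 0.300 CPM (SD, n = 2) against 3.14 ± 0.524 CPM (SD, n = 2) in OE, an 8.17-fold ratio of the means. The log2 fold change was 3.01 with a standard error of 0.601 (edgeR, unadjusted p = 0.00881, adjusted p = 0.121), and DESeq2 gave an adjusted p of 2.2e-05. The size of the ratio rests on the lower vector control library. Its replicates differed 3.47-fold, which 4.21% of the 3635 tested genes of a like level reached or exceeded. The log2 fold change was 2.38 when vector control replicate 1 was left out and 4.15 without vector control replicate 2, and its unadjusted p stayed between 0.00405 and 0.0407 (edgeR) with each library left out.

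*IFITM3* was the most abundant restriction gene in OE by TPM, as given with the levels, and the one with the smallest p in DESeq2. Vector control libraries held 1688 and 1937 of its counts, against 4408 and 4159 in OE. The groups were separated by more than the spread of either, with 77.5 ± 7.03 CPM (SD, n = 2) against 160 ± 22.5 CPM (SD, n = 2), a 2.06-fold ratio. The log2 fold change was 1.04 with a standard error of 0.145 (edgeR, unadjusted p = 0.0025, adjusted p = 0.082; DESeq2, adjusted p = 7.9e-10). With each library left out it was from 0.89 to 1.18, and its unadjusted p from 0.00328 to 0.0169 (edgeR).

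*IFITM2* had 1957 and 2098 counts in the vector control against 2886 and 2989 in OE. Its replicates agreed closely and its difference was the smallest, 86.7 ± 3.71 CPM (SD, n = 2) against 109 ± 8.26 CPM (SD, n = 2), a 1.26-fold ratio. The log2 fold change was 0.33 with a standard error of 0.0978 (edgeR, unadjusted p = 0.03, adjusted p = 0.195). With a replicate block, its unadjusted p was 0.0772 (edgeR). DESeq2 gave an adjusted p of 0.00856, at a fold change under the study's threshold of 0.5. The unadjusted p was 0.113 without vector control replicate 1, 0.0639 without vector control replicate 2 and 0.0987 without OE replicate 1 (edgeR).

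*IFITM1* had 346 and 300 counts in the vector control against 1614 and 484 in OE. OE replicate 1 stood far above the other 3 libraries, at 64.3 CPM, whereas OE replicate 2 was at 16.7 CPM against 14.9 and 12.8 CPM in the vector control. The means were 13.8 ± 1.48 CPM (SD, n = 2) and 40.5 ± 33.6 CPM (SD, n = 2), and the log2 fold change of 1.55 with a standard error of 0.714 did not pass (edgeR, unadjusted p = 0.0999, adjusted p = 0.325). Without OE replicate 1 it was 0.28, and without OE replicate 2 it was 2.22 (edgeR, unadjusted p = 0.00106). The 3.84-fold gap between the OE replicates was reached or exceeded by 216 of 5817 tested genes of a like level (3.71%).

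The IFITM genes are close in sequence. The leading transcripts of *IFITM2* and *IFITM3* were 93.9% identical over their aligned bases, those of *IFITM1* and *IFITM3* 81.2%, and those of *IFITM1* and *IFITM2* 78.4%. No stretch of 150 bases, the read length, was shared unchanged between them, and stretches of 75 bases were shared for 3.13% to 12.5% of positions. How reads that fit several genes were counted is not given in the sources used here, so the split among the IFITM genes is less certain than their sum. The sum was 3991 and 4335 counts in the vector control against 8908 and 7632 in OE, or 178 ± 9.26 CPM (SD, n = 2) against 309 ± 64.5 CPM (SD, n = 2). Its log2 fold change was 0.80 with a standard error of 0.171 (edgeR, unadjusted p = 0.0112, adjusted p = 0.132).

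Within the cluster, *IFITM3* took a higher share of the counts in OE, a difference that in OE replicate 1 rested on 1 transcript. Its share of the counts of *IFITM3* and *IFITM2* was 46.3% (95% Wilson interval 44.7% to 47.9%) and 48.0% (46.5% to 49.5%) in the vector control, and 60.4% (59.3% to 61.5%) and 58.2% (57.0% to 59.3%) in OE. Each OE interval lay above both vector control intervals. Without ENST00000531688.1, an *IFITM3* transcript with 1595 counts in OE replicate 1 and at most 9 elsewhere (left out after its values were seen), the shares were 46.2% and 47.9% in the vector control and 49.4% (48.1% to 50.7%) and 58.1% (57.0% to 59.3%) in OE. The interval of OE replicate 1 then overlapped that of vector control replicate 2 (46.4% to 49.5%). Leaving out that transcript could only lower the share in OE replicate 1. The decay-annotated *IFITM2* transcript ENST00000527146.1, with 1510 counts in vector control replicate 1, was kept, so that the comparison is one-sided. The share of *IFITM1* in the counts of *IFITM1* and *IFITM2* was 15.0% and 12.5% in the vector control and 35.9% and 13.9% in the OE libraries, so that OE replicate 2 lay between the controls and OE replicate 1 apart from them. These intervals cover counting error only, and they take 1 count as 1 read, which is not known.

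**Figure D2:**
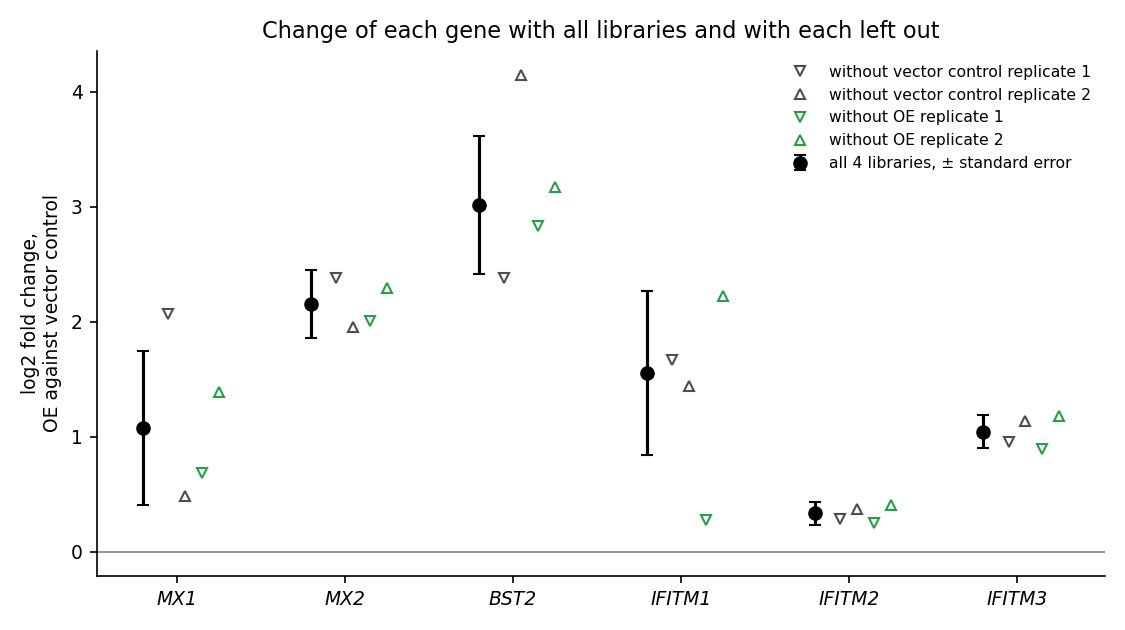
Log2 fold change of each gene between OE and vector control, with all 4 libraries as black points with the standard error from edgeR, and with 1 library left out as triangles. All estimates lie above 0, which leaving out a library could not change, since both OE libraries exceeded both vector control libraries for each gene. *MX2*, *IFITM2* and *IFITM3* move little, whereas *IFITM1* falls to 0.28 without OE replicate 1, *MX1* ranges from 0.49 to 2.07 and *BST2* from 2.38 to 4.15.

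Levels were compared between genes in TPM, computed here from the transcript counts and the lengths of the annotated transcripts. The IFITM genes were abundant and the other restriction genes scarce in both groups. In the vector control, *IFITM2* was at 260 ± 18.6 TPM and *IFITM3* at 253 ± 18.2 TPM (SD, n = 2), values that did not differ beyond their spread, and *IFITM1* followed at 41.4 ± 5.21 TPM. *BST2* (0.761 ± 0.584 TPM), *MX1* (0.434 ± 0.409 TPM) and *MX2* (0.334 ± 0.0757 TPM) overlapped one another. In OE, the order of the mean levels was *IFITM3* (528 ± 43.3 TPM), *IFITM2* (319 ± 18.3 TPM), *IFITM1* (132 ± 93.1 TPM), *BST2* (6.53 ± 0.972 TPM), *MX2* (1.79 ± 0.422 TPM) and *MX1* (0.783 ± 0.392 TPM). Each of these neighbours in the order was apart in every OE library, with *IFITM2* at 332 and 306 TPM against *IFITM1* at 198 and 66.6 TPM, and *MX2* at 2.09 and 1.50 TPM against *MX1* at 1.06 and 0.505 TPM. Only 219 genes had a higher mean TPM than *IFITM3* in OE, against 525 in the vector control. The IFITM genes carried 97.8% to 99.3% of the counts of the restriction genes in each library.

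The counts were split over annotated transcripts in ways that differed between libraries. For *MX2*, the vector control counts were all on ENST00000482953.1, a retained-intron transcript without a coding sequence (16 and 12 counts, 0 and 0 in OE). In OE, 66 and 62 counts were on the protein-coding ENST00000330714.3, which had 0 counts in both vector control libraries. A count of 0 would allow up to 3 if 1 count stood for 1 read, which is not known. That bound does not cover how reads were assigned to transcripts. Among 14595 tested genes of any level with several listed transcripts and counts in every library, 335 (2.3%) likewise had 1 leading transcript in both vector control libraries and another in both OE libraries, and 75.5% kept 1 leading transcript throughout. These genes were not matched to the low counts of *MX2*. *MX1*, *BST2*, *IFITM1* and *IFITM3* also kept theirs.

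For *IFITM2*, the vector control libraries differed from each other. In replicate 1, 1510 counts were on ENST00000527146.1, annotated as a target of nonsense-mediated decay, 447 were on ENST00000533141.1, and 0 were on ENST00000399817.4, the protein-coding transcript that held 2098 counts in vector control replicate 2 and 2884 and 2983 counts in OE. The sum over the gene was close in both vector control libraries, at 1957 and 2098 counts. For *IFITM3*, ENST00000399808.4 had 1682 and 1932 counts in the vector control against 2813 and 4150 in OE. The decay-annotated ENST00000531688.1 had 1595 counts in OE replicate 1 and at most 9 in the other 3 libraries. With the transcript of the highest mean count in place of the sum, the log2 fold change of *IFITM3* was 0.72 and that of *IFITM2* was 1.29, the latter with an unadjusted p of 0.704 (edgeR), since its vector control replicate 1 was at 0.

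*IFITM1* rested on ENST00000408968.3, with 346, 300, 1614 and 467 counts in the 4 libraries, so that its high value in OE replicate 1 lay on the same transcript as its other values. *BST2* had all its counts on ENST00000252593.6. *MX1* had 15, 6, 31 and 24 counts on ENST00000398600.2, and 3 counts on the retained-intron ENST00000468506.1 in vector control replicate 1 and again in OE replicate 1.

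**Figure D3:**
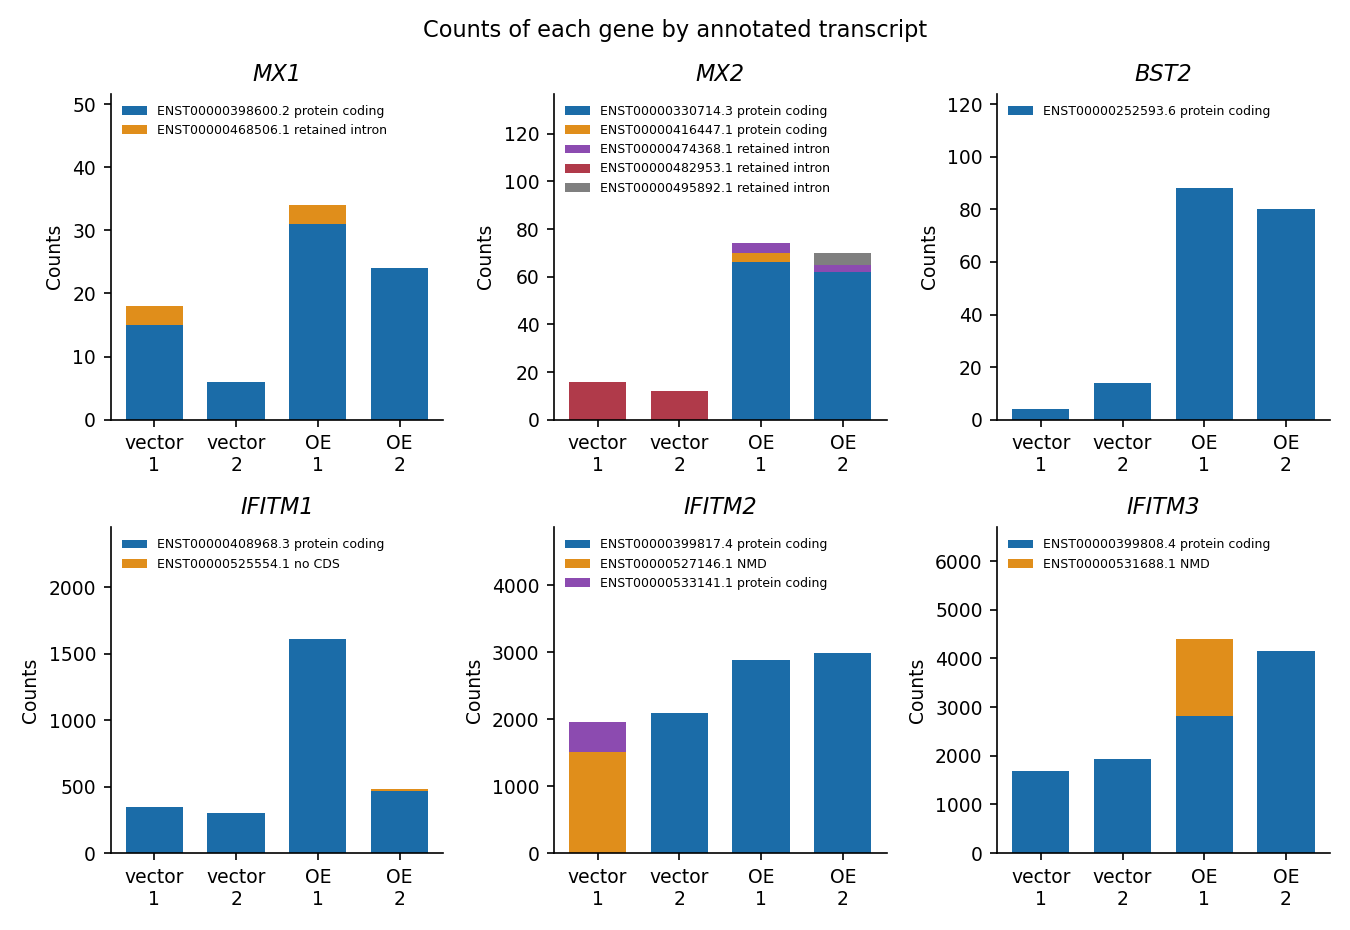
Counts of each gene by annotated transcript, stacked in 1 bar per library, with a linear axis from 0 for each gene (NMD, nonsense-mediated decay; no CDS, no coding sequence defined). *MX2* counts are assigned to a retained-intron transcript in the vector control (16 and 12 counts) and mostly to a protein-coding one in OE. Assignment also differs within groups, for *IFITM2* between the vector control libraries, and for *IFITM3* by a decay-annotated transcript with 1595 counts in OE replicate 1.

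Genes whose pattern over the 4 libraries was nearest to each restriction gene were ranked by the Euclidean distance of log2 CPM, each gene centred on its mean, among tested genes whose mean reached 10 CPM. The nearest to *MX2* were *AFF1* (distance 0.215), *VDAC3* and *INSM2*. The nearest to *BST2* were *FAS* (distance 0.586), which codes for a death receptor, *CEP89* and *TCEAL4*. The nearest to *MX1* were *GULP1* (distance 0.298), *IGSF9B* and *NPM1*. The nearest to *IFITM2* were *RPL5P34* (distance 0.0198), *C3orf62* and *CTSF*, and the nearest to *IFITM3* were *DCN* (distance 0.0823), *PRSS53* and *ZNF536*.

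The genes nearest to *IFITM1* were *KLHL24* (distance 0.101), *MICAL2* and *CNOT2*, all high in OE replicate 1 alone. In OE replicate 1, their leading transcripts had 1625, 4542 and 1065 counts, and each had 0 in the other 3 libraries. Among tested genes of a level like that of *IFITM1*, restricted to those with several listed transcripts and counts in all 4 libraries, the leading transcript differed between the OE libraries in 689 of 4921 genes (14.0%). Among those with at least its gap between the OE replicates, it differed in 111 of 207 genes (53.6%). *IFITM1* itself kept its leading transcript. The part of transcript assignment in its value in OE replicate 1 was not tested.

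Of 8 genes that flank the 3 loci or lie within them (mean of at least 1 CPM), 0 had an unadjusted p under 0.05 in edgeR, against 10.1% of all tested genes higher and 10.7% lower, a count too small to be read against these shares. *RIPK4*, 317531 bases beyond the MX genes, had 203 and 216 counts in the vector control against 296 and 318 in OE (log2 fold change 0.35, edgeR, unadjusted p = 0.0603), and *B3GALT5* on the other side had 69, 69, 23 and 114 counts. *MVB12A*, whose gene begins 92 bases from *BST2* on the opposite strand and codes for a subunit of an ESCRT complex, had 454 and 611 counts in the vector control against 859 and 837 in OE (log2 fold change 0.47, edgeR, unadjusted p = 0.0803). *GTPBP3*, on the other side of *BST2*, had 209, 578, 463 and 950 counts. Beside the IFITM cluster, *ATHL1* had log2 fold change 0.13 and *B4GALNT4* -0.22, and the noncoding *RP11-326C3.7* and *RP11-326C3.11* within it -0.55 and -0.36.

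Reads from overlapping genes cannot be told apart without strand, whose use in counting is not given in the sources used here. *MX2* and *BST2* share no exonic bases with another annotated gene. Of the genes that overlap exons of the others, ENSG00000288681, which overlaps *IFITM1* and *IFITM2*, was not analysed here. *TMPRSS2* and *AP001610.5*, which overlap *MX1*, had 0 in all libraries. *RP11-326C3.7*, which overlaps *IFITM1*, had 28, 40, 22 and 32 counts. *RP11-326C3.12*, which overlaps *IFITM3*, had at most 15 counts, and *RP11-326C3.4*, which overlaps *IFITM2*, had at most 1. The pseudogene *IFITM9P* had 10, 5, 7 and 7 counts, and *IFITM4P* and *IFITM8P* had 0.

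Differences of other restriction factors went in both directions. Of 38 other restriction factors, 34 were tested, 6 were higher and 6 lower in OE at an unadjusted p under 0.05 (10.1% and 10.7% of all tested genes), and their median log2 fold change was 0.12. The higher genes numbered 2 without OE replicate 1 and 2 without OE replicate 2, the lower ones 3 without vector control replicate 1, and the median was 0.06 without OE replicate 2. *RSAD2* (viperin) had 213 and 232 counts in the vector control against 473 and 523 in OE, a log2 fold change of 0.96 (edgeR, adjusted p = 0.0778). *GBP2*, an interferon-inducible guanylate-binding protein, had 1077 and 920 against 566 and 592 counts, a log2 fold change of -0.99 (edgeR, adjusted p = 0.0814). *CNP* and *TRIM5*, a capsid-binding factor against retroviruses, had log2 fold changes of -0.35 and -0.57.

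The wider families of the restriction genes were measured too. Of 19 large dynamin-related proteins other than the MX genes, all were tested, 1 was higher and 8 lower at an unadjusted p under 0.05, against 10.1% and 10.7% of all tested genes, and the median log2 fold change was -0.35. The lower genes numbered 5 without either vector control replicate, and the higher ones 0 with any library left out. *EHD3*, an endosomal ATPase of that family, had 7931 and 8172 counts in the vector control against 5020 and 5705 in OE, a log2 fold change of -0.79 (edgeR, adjusted p = 0.0445). The log2 fold change of *EHD2* was -0.42 and that of *DNM1*, the neuronal dynamin, was -0.62. Of the CD225 family beside *IFITM1* to *IFITM3*, 3 of the 9 genes in the table were tested. *PRRT2*, *TMEM91* and *IFITM10* had log2 fold changes of -0.15, -0.17 and 0.10, with 0 higher and 0 lower at an unadjusted p under 0.05 in edgeR. DESeq2 gave 0 higher and 1 lower (*PRRT2*) at that threshold, against 14% and 14.9% of all tested genes. With 3 genes tested, these counts are too small to be read against the shares. The median was -0.15 and, without OE replicate 1, -0.02.

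In the interferon signalling chain, *IRF9*, a subunit of ISGF3, had the lowest log2 fold change, at -1.99 with a standard error of 0.417 (edgeR, unadjusted p = 0.0104, adjusted p = 0.128), on 24 and 21 counts against 5 and 8. Of 20 genes in the table, 17 were tested, 2 were higher and 3 lower at an unadjusted p under 0.05, against 10.1% and 10.7% of all tested genes, and the median log2 fold change was -0.09. The higher genes numbered 0 without vector control replicate 1, 1 without OE replicate 2 and 0 with a replicate block, and the lower ones 2 without either vector control replicate. The median was -0.04 without vector control replicate 1 and -0.03 without OE replicate 1, and DESeq2 gave 3 higher and 5 lower genes, against 14% and 14.9% of all tested genes with that tool at an unadjusted p under 0.05. *STAT2*, another subunit of ISGF3, was among the higher genes (log2 fold change 0.28). Beside *IRF9*, the lower genes were the feedback inhibitor *SOCS3* (log2 fold change -0.36) and *IL10RB*, a receptor chain of type III interferon (log2 fold change -0.58). Most interferon genes had no count. Of 22 interferon genes in the table, 5 had a count in any library. *IFNE* had 244 and 247 counts in the vector control against 142 and 207 in OE, *IFNA1* had 11, 9, 3 and 9, *IFNB1* had 0, 2, 13 and 0, *IFNL1* had 4 in OE replicate 1, and *IFNA5* had 1 in OE replicate 2.

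Cofactors and partners of the restriction proteins numbered 20, of which 18 were tested, 0 were higher and 1 lower at an unadjusted p under 0.05, against 10.1% and 10.7% of all tested genes, with a median log2 fold change of 0.06. The higher genes numbered 2 when vector control replicate 1 was left out and 1 without vector control replicate 2, the lower ones 0 without vector control replicate 2 and 0 without OE replicate 1, and the median was -0.01 without vector control replicate 1, 0.02 when vector control replicate 2 was left out and 0.004 without OE replicate 1. DESeq2 gave 3 higher and 4 lower genes at the same threshold, against 14% and 14.9% of all tested genes. *ZDHHC20*, a palmitoyltransferase that acts on IFITM3, had 366 and 419 counts in the vector control against 318 and 323 in OE (log2 fold change -0.49, edgeR, unadjusted p = 0.0309). The log2 fold changes were -0.24 for *MARCH8*, -0.66 for *SMARCA2* and 0.36 for *PIGA*, needed for lipid anchors such as that of tetherin.

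**Figure D4:**
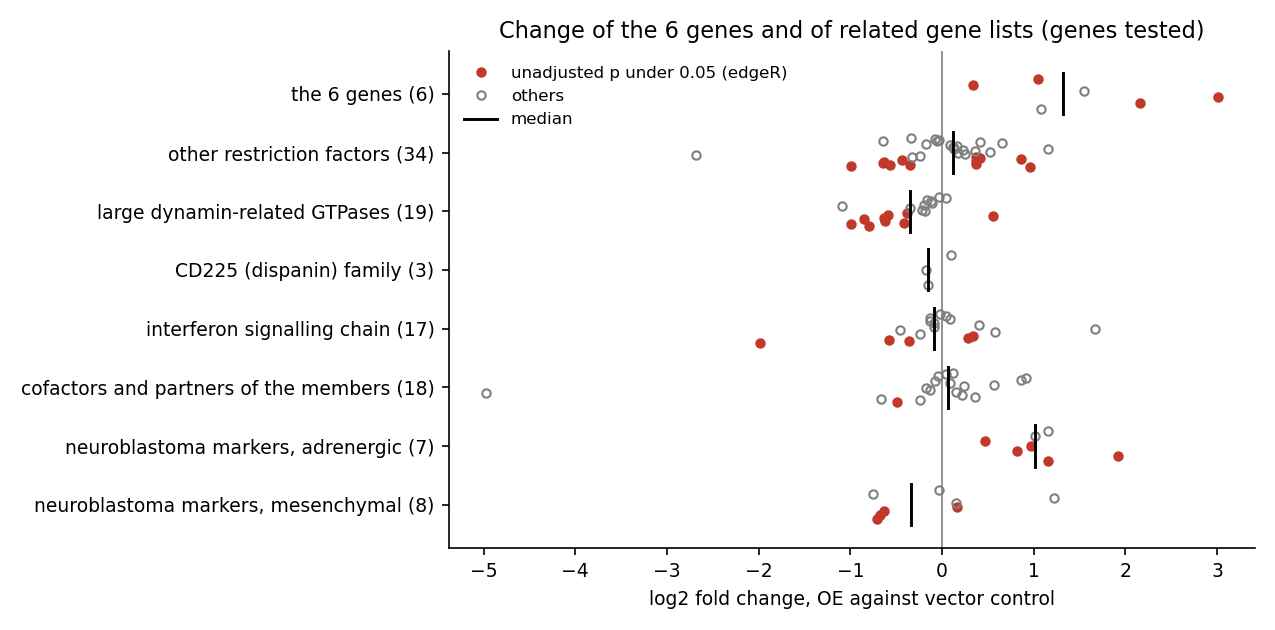
Log2 fold change between OE and vector control of the 6 restriction genes and of the tested genes of related lists, with filled points where edgeR gave an unadjusted p under 0.05, open points otherwise, a black bar at each median and the number tested in brackets. The median is 1.31 for the 6 restriction genes and 1.01 for the adrenergic markers, and lies between -0.35 and 0.12 for the other lists drawn. Markers of other cells are not drawn.

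Markers of the adrenergic neuroblastoma state were higher in OE, as the restriction genes were. Of 8 adrenergic markers, 7 were tested, both OE libraries lay above both controls for all 7 (27.8% of all tested genes), and 5 were higher at an unadjusted p under 0.05 (10.1% of all tested genes). Their median log2 fold change was 1.01, and their summed level was 364 and 435 CPM in the vector control and 689 and 654 CPM in OE. The transcription factor *GATA3* had 1198 and 926 against 2227 and 2563 counts (log2 fold change 0.96, edgeR, adjusted p = 0.101), and *DBH*, an enzyme of noradrenaline synthesis, had a log2 fold change of 0.82. *TH*, the first enzyme of that pathway, had no count in any library. Of 8 mesenchymal markers, 1 was higher and 3 were lower at an unadjusted p under 0.05, against 10.1% and 10.7% of all tested genes, with a median log2 fold change of -0.34. The median was -0.02 without vector control replicate 1 and -0.23 without OE replicate 2, where the lower genes numbered 2, and the higher ones numbered 0 without vector control replicate 2 and 0 without OE replicate 1. The log2 fold changes were -0.71 for *CD44*, -0.68 for *SNAI2*, -0.64 for *PRRX1* and 0.16 for *NOTCH2*. *VIM*, like *IFITM1*, stood high in OE replicate 1 alone, with 8111, 8217, 31466 and 10869 counts. The part of the neuroblastoma state in the levels of the restriction genes was not tested.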

How the data were processed

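Total RNA of 4 SK-N-SH libraries (TruSeq, 150-base paired ends) was read from the deposited table. The authors used FastQC and Trimmomatic on the reads, then Bowtie2 with hg19, and deposited a table of raw counts, in whole numbers, for each transcript. The submitters' processing notes also name Picard 2.21.6, StringTie 2.1.6 and DESeq2. The counting step, annotation release and use of strand are not given in the sources used here.

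Counts of 196520 transcripts were summed per gene. Genes kept by filterByExpr (20528) were normalized by TMM (factors 0.976 to 1.02) and tested with edgeR 4.0.16 (R 4.3.3), using the quasi-likelihood test, Benjamini-Hochberg adjustment over all tested genes and no covariates. The common dispersion was 0.122, with 2 residual and 1.75 prior degrees of freedom. DESeq2 1.42.0 and limma-voom (limma 3.58.1) were alternatives, beside other normalizations and filters, a replicate block, and leaving out each library or the mitochondrial genes. Transcripts were aligned with Biopython 1.88. TPM used GENCODE lengths, which covered 93.2% to 93.7% of counts. Scripts were tested on simulated counts. Replicates differed by more than sampling noise (chi-square per degree of freedom 68.1 and 77.9).

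The 6 genes and the 8 lists were chosen with earlier results of these data known. Named genes were the 6, the overexpressed gene, the 3 nearest in pattern to each, the flanking genes, and up to 4 per list with the smallest unadjusted p. *VIM*, *TH*, *CD14* and the markers at 0, the interferons, the overlapping genes and pseudogenes, and *RP11-439A17.9* were named after their values were seen. Results of some genes covered by the rule are not reported here.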

Additional observations from a re-analysis of the deposited data

How the results depend on the processing

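All fold changes of the 6 genes kept their direction under every alternative run, and none reversed. In edgeR, 0 genes were called at the main settings, 122 at an adjusted p under 0.05, 9 with a minimum of 1 count in total and 1 with the transcript of the highest mean count. DESeq2 called 1800 genes, and the cause of that difference was not tested. DESeq2 also called *MX2* (log2 fold change 2.16), *BST2* (3.03) and *IFITM3* (1.04). With each library left out in turn, the log2 fold changes of the 6 genes were from 0.25 (*IFITM2*, without OE replicate 1) to 4.15 (*BST2*, without vector control replicate 2). A library left alone in its group was assumed to vary like the other group. The transcript of the highest mean count gave 8.91 for *MX2*, a fitted value that depends on the prior count, since that transcript had 0 counts in the vector control. On the lists, 256 of 312 values stayed within their bound and 56 moved beyond it. With the transcript of the highest mean count, 2 other restriction factors were higher, and of the mesenchymal markers 1 was lower, with a median of -0.67. Low counts limit *MX1*, *MX2* and *BST2*, each at most 18 counts per vector control library.

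Libraries of the 2 groups share replicate numbers, but the labels name no shared batch. Deviations of same-numbered libraries from their group means correlated at r = -0.0329 over 14023 genes, and genes are not independent replicates. With a replicate block, 0 genes were called. *MX2*, *BST2* and *IFITM3* stayed at an unadjusted p under 0.05 in edgeR, and *IFITM2* did not (0.0772, against 0.03 without the block). The share of all tested genes under the block is not given here, so these counts, and those of the lists that follow, cannot be read against it. The block left 2 of the other restriction factors, 0 of the interferon chain and 0 of the mesenchymal markers higher, and 2 mesenchymal markers and 0 cofactors lower. The log2 fold changes with the block were 1.19 for *MX1*, 2.16 for *MX2*, 3.08 for *BST2*, 1.25 for *IFITM1*, 0.33 for *IFITM2* and 1.04 for *IFITM3*.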
